A study of Rattus norvegicus with 2 samples.

Results

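Mitogen-activated protein (MAP) kinases and the phosphatases that act on phosphotyrosine were compared between RNA of hippocampal synaptosomes and RNA of the total hippocampus. Synaptosomes are pinched-off nerve endings with attached postsynaptic membrane, obtained by biochemical fractionation. The members are all genes whose single symbol in the platform's annotation begins with Mapk, Map2k, Map3k, Dusp, Ptpn or Ptpr, apart from Dusp6, Ptprn and Ptprz1, which were left aside by the rule. This gave 51 genes with 95 probe sets, out of 4736 genes with 7006 probe sets that carry 1 symbol. There are 20 genes of the kinase cascades, 4 dual-specificity phosphatases, 16 receptor tyrosine phosphatases and 11 non-receptor tyrosine phosphatases.

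Both samples came from Sprague Dawley rats at postnatal day 70, and each was hybridised to 1 Affymetrix rat array after amplification of cDNA. The labels name no genotype or treatment and do not say how many animals were pooled or whether both RNAs came from the same animals. With 1 array per group, each value is a single measurement, the precision is limited by the number of arrays, and the groups could not be tested against each other. The study asked which mRNAs are more abundant at the synapse than in the tissue as a whole. Because each array was scaled to a common mean, a ratio describes a transcript's share of the amplified RNA, and neither fewer cells of a type nor less RNA per cell can be told apart from it.

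A MAP kinase cascade has 3 tiers: a MAP3K phosphorylates a MAP2K, which phosphorylates a MAP kinase on a threonine and a tyrosine of its activation loop. Dual-specificity phosphatases remove both phosphates, and some tyrosine phosphatases remove the tyrosine phosphate alone. In hippocampal neurons the ERK branch is known for its part in synaptic plasticity, and receptor tyrosine phosphatases of the LAR family are adhesion proteins that help organise nerve terminals.

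A signal is the authors' deposited intensity. Signals under a floor of 846, the median of the pooled values of both arrays, were raised to the floor before the logarithm. Ratios are on the log2 scale, synaptosome minus hippocampus, less their median over all filtered probe sets, -0.17, which makes the fold of a higher gene 1.13 times the quotient of its signals. A fold with 1 array at the floor is a bound on these terms and is written "at least". Negative readings show the scatter of the background, and 95% of them were smaller in size than 2912.6 in synaptosomes and 5280.25 in the hippocampus. Sizes of folds and bounds are uncertain where a signal lies within this negative spread.

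Of the 51 genes, 29 had a probe set past the filter, 17 were at or under the floor on both arrays with every probe set, and 5 were above the floor on an array without passing the filter. Among the 29, synaptosomes had a signal at least 2-fold higher for 8 genes and at least 2-fold lower for 4. These are 27.6% and 13.8%, beside 19.1% higher and 14.3% lower over all 2735 filtered genes. The median log2 ratio of the 29 was 0.06, beside 0.00 over all filtered genes. Without centring it was -0.11, beside -0.17. The higher genes were Ptpn1, Ptpro, Ptpra, Ptprf, Ptpn5, Ptpn6, Ptprs and the scaffold gene Mapk8ip2, so 7 of the 8 encode tyrosine phosphatases. Receptor and non-receptor tyrosine phosphatases made up 7 genes each of the 29. Ptpn6, Ptprs and Ptpro each had another filtered probe set on the lower side. The lower genes were Dusp7, Mapk8, Map2k6 and Mapkapk2. In all 8 higher genes the hippocampus reading lay under the size of negative readings on that array, while 6 of the 8 synaptosome readings lay above that size on theirs. All 4 lower genes had a synaptosome reading within the negative spread, and Map2k6 alone had a hippocampus reading above it.

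**Figure D1:**
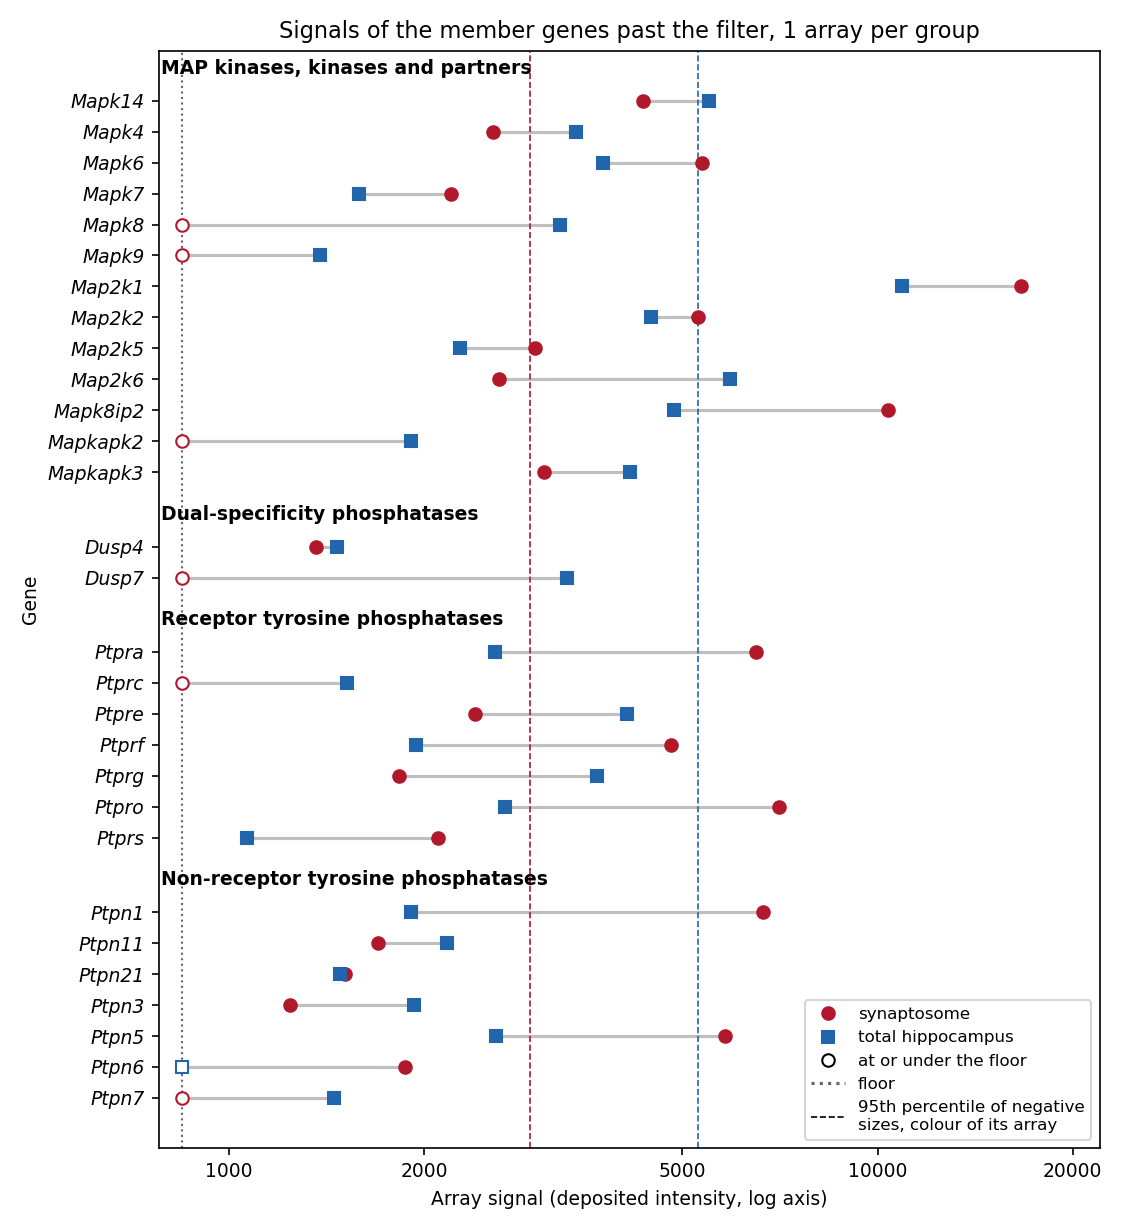
Signals on the synaptosome array (circles) and the hippocampus array (squares) of the probe set used for each of the 29 member genes past the filter, on a log axis; open symbols lie at or under the floor of 846, drawn at the floor, and dashed lines mark the size under which 95% of negative readings of each array lie. Ptpra, Ptprf, Ptpro, Ptpn1 and Ptpn5 have the circle right of the square by more than 2-fold, while Mapk8 and Dusp7 have an open circle at the floor.

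The kinases of the ERK branch had small differences in favour of synaptosomes. Map2k1, which encodes MEK1, the kinase that activates ERK, read 16656 in synaptosomes and 10916 in the hippocampus with its brightest probe set, a log2 ratio of 0.78 or 1.72-fold. Its other probe sets read 5896 against 2688, which is 2.47-fold, and 2877 against 2489, which is 1.30-fold. All 3 probe sets of Map2k1 were therefore higher in synaptosomes, 1 of them past 2-fold, and the brightest is the only member probe set besides 1 of Mapk14 that stood above the negative spread on both arrays. Map2k2, which encodes MEK2, read 5278 and 4475, or 1.33-fold higher, and 2151 and 1379, or 1.76-fold higher. The remaining probe set of Map2k2 read 3632 in synaptosomes and -4983 in the hippocampus, at least 4.83-fold higher against a reading within the negative spread, so that bound is uncertain. Every filtered probe set of both MEK genes was on the higher side, without centring too.

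The ERK5 branch, a separate cascade in which Map2k5 activates Mapk7, also lay slightly on the higher side. Map2k5 read 2965 and 2271, or 1.47-fold higher, and its other probe set, under the filter, read 1319 and -492. Mapk7, which encodes ERK5, read 2203 and 1585, or 1.56-fold higher, while its other probe set read 22 and -8614 and has no ratio. Mapk6, which encodes the atypical kinase ERK3, read 5353 and 3769, or 1.60-fold higher, and 1136 and -110 with a probe set under the filter. Mapk4, which encodes the related ERK4, read 2553 and 3432, a log2 ratio of -0.26. All of these differences are smaller than the standard deviation (SD) between log2 ratios of probe sets that share a gene, 0.90 over all genes, except that of the uncertain Map2k2 probe set and 1 probe set of Map2k1.

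In the stress branches, JNK and p38, 3 genes were past 2-fold on the lower side, 2 of them with a synaptosome reading under the floor. Mapk8, which encodes JNK1, read 498 in synaptosomes, under the floor, and 3238 in the hippocampus, at least 3.40-fold lower. Mapk9, which encodes JNK2, read 782 and 1379, a bound of -0.53 on the log2 scale, and its other 2 probe sets were at the floor on both arrays. Both JNK genes passed the filter only through the hippocampus array, where they are higher. The bound of Mapk9 is smaller than the SD of 0.90 between probe sets of a gene. Map2k6, a kinase that activates p38, read 2605 and 5920, or 2.02-fold lower, at the edge of the 2-fold limit. Mapkapk2, a kinase phosphorylated by p38, read -835 and 1908, at least 2-fold lower and likewise at the limit. Mapkapk3, a related p38 target, read 3065 and 4148 with 1 probe set, a log2 ratio of -0.27, and its other 3 probe sets were at the floor.

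Mapk14, which encodes p38 alpha, showed no 2-fold difference. Its brightest probe set read 4352 in synaptosomes and 5491 in the hippocampus, a log2 ratio of -0.17, and a second read 3638 and 4432, a log2 ratio of -0.11. The dimmer ones that passed the filter read 2353 against 1784 and 1769 against 1377, log2 ratios of 0.57 and 0.53. The sign therefore differed between probe sets of this gene, over a range of 0.73 on the log2 scale. Another probe set of Mapk14, under the filter, read 1073 and -432, and the last was at the floor on both arrays. Mapk12, which encodes p38 gamma, was at the floor on both arrays with its 2 probe sets, with readings from -1837 to 0.

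The scaffold Mapk8ip2, which holds JNK and its upstream kinases together, was the one kinase-cascade gene past 2-fold on the higher side. It read 10385 in synaptosomes and 4858 in the hippocampus, which is 2.41-fold higher at a log2 ratio of 1.27. The related scaffold gene Mapk8ip1 read -2279 and -1725, so nothing can be said of it. None of the 5 MAP3K genes passed the filter. Map3k12, the dual leucine zipper kinase of axon injury signalling, read 1261 and -169, and Map3k9, a mixed lineage kinase, read 839 and 1192. Map3k1, Map3k3 and Map3k8 were at the floor on both arrays, with readings from -890 to 752. In all, 13 of the 20 kinase-cascade genes passed the filter. Of these, 1 was past 2-fold on the higher side (7.69%), 3 on the lower side (23.1%) and 9 between. The shares over all filtered genes were 19.1% higher and 14.3% lower. The median of the 13 genes was -0.17. Over the 10 of them above the floor on both arrays the median was 0.48, so the 3 bounds decide its sign.

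Dual-specificity phosphatases were near or under the detection limit. Dusp7, a cytoplasmic phosphatase of ERK, read -1011 in synaptosomes and 3316 in the hippocampus, at least 3.48-fold lower. Dusp4, a nuclear MAP kinase phosphatase, read 1360 and 1469, a log2 ratio of 0.06 that was -0.11 without centring. Dusp1, an immediate early gene whose product inactivates MAP kinases in the nucleus, had negative readings on both arrays with all 3 probe sets, from -2277 to -279. Dusp5, a nuclear phosphatase of ERK, read 206 and -136. At these signals neither Dusp1 nor Dusp5 could be called present or different.

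**Figure D2:**
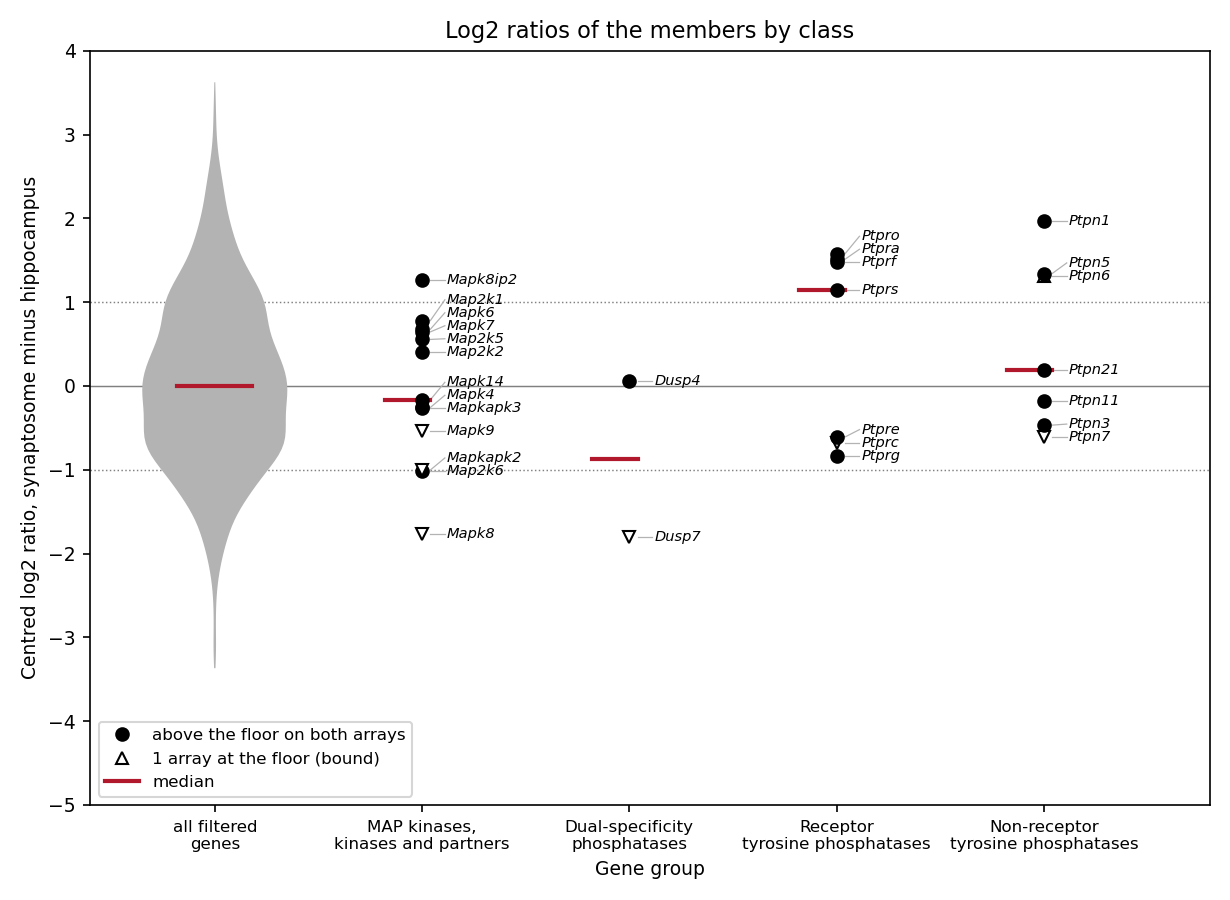
Centred log2 ratios (synaptosome minus hippocampus) of the 29 filtered member genes by class, beside the distribution over all 2735 filtered genes; red bars are medians, dotted lines mark 2-fold, and open triangles are bounds with 1 array at the floor. With the probe set used, Ptpro, Ptpra, Ptprf and Ptprs lie above 1 and Ptpre, Ptprc and Ptprg below 0, and the single kinase-cascade gene above 1 is Mapk8ip2.

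Receptor tyrosine phosphatases included Ptpro, Ptpra and Ptprf among the higher genes of the set. Of the 16 genes 7 passed the filter, 4 of them at least 2-fold higher, 0 lower and 3 between. The share higher was 57.1%, beside 19.1% higher and 14.3% lower over all filtered genes. The 7 genes had a median of 1.15, beside 0.00 over all filtered genes. The median was 0.98 without centring, and -0.06 when the ratios of a gene's probe sets were averaged, with Ptprs then at -0.06 and Ptpro at 0.65. The choice of probe set thus decides the sign of this median and the gap between the genes above 1 and those below 0.

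Ptpro, a receptor phosphatase of neurons and of kidney podocytes, read 7051 in synaptosomes and 2662 in the hippocampus with its brightest probe set, which is 2.98-fold higher. Its other probe sets read 2212 against 1732, 1.44-fold higher, and 1251 against 1570, a log2 ratio of -0.16. Ptpra, which activates Src-family kinases by removing an inhibitory phosphate, read 6502 and 2567, or 2.85-fold higher, and 2570 and 1929, or 1.5-fold higher. Both Ptpra probe sets were on the higher side, and with their mean the gene stayed past 2-fold at a log2 ratio of 1.05.

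The LAR family holds Ptprf, Ptprs and Ptprd. Ptprf, LAR itself, read 4796 and 1940 with its single probe set, a log2 ratio of 1.48 or 2.78-fold higher. Ptprs read 2100 and 1067 with the probe set used, 2.21-fold higher or 1.97-fold without centring, but -12 and 2289 with another, at least 2.40-fold lower. The probe sets of Ptprs therefore pointed in opposite directions past 2-fold. This occurred in 1 of the 9 member genes with several filtered probe sets, beside 36 of the 658 such genes of the array. The other 2 probe sets of Ptprs were at the floor on both arrays. Ptprd read 983 and -584, just above the floor in synaptosomes and under the filter. A direction common to the family could therefore not be read from these arrays.

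Of the 3 genes with negative ratios, none past 2-fold, Ptprg, a receptor phosphatase that binds contactins, read 1831 in synaptosomes and 3691 in the hippocampus, a log2 ratio of -0.84, or 1.79-fold lower, and 2.02-fold lower without centring. Ptpre, the closest relative of Ptpra, read 2396 and 4114, 1.53-fold lower, with the probe set used, and 1462 and 1247, 1.32-fold higher, with the other. Ptprc, the leukocyte antigen CD45, read 400 and 1521 with 1 probe set, a bound of -0.68, and was at the floor on both arrays with its other 2. Microglial and leukocyte markers lay beside this as follows: 3 of 7 genes on the array were above the floor on each array, Csf1r, Itgam and C1qc were at the floor on both, and the summed signal was 21155 in synaptosomes and 9734 in the hippocampus. Aif1, the only one of the 7 past the filter, made up most of that sum, with 9709 against 5538 and 7546 against 1267, while Cx3cr1 read 797 and 1262. Their part in the Ptprc reading was not tested.

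Among the remaining receptor phosphatases, Ptprj read 1266 and 407, and Ptprn2, a membrane protein of dense-core vesicles, read 1202 and -73. Both were above the floor in synaptosomes only and under the filter. Ptprr, a phosphatase that docks on MAP kinases, read 733 and -761. It was at the floor on both arrays, as were Ptprh, Ptprm, Ptprq, Ptpru and Ptprv, with readings from -1185 to 591 among those 5 genes.

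Non-receptor tyrosine phosphatases had 3 of 7 filtered genes at least 2-fold higher, 0 lower and 4 between, with a median of 0.19, which without centring was 0.02. Ptpn5, or STEP, is a neuronal phosphatase that acts on ERK, p38, the kinase Fyn and the NMDA receptor subunit encoded by Grin2b. It read 5809 in synaptosomes and 2579 in the hippocampus with its single probe set, a log2 ratio of 1.34 or 2.53-fold higher. Of the targets named here, Fyn read 18490 and 14684, or 1.42-fold higher, and Grin2b read 4965 and 3627, or 1.54-fold higher. Mapk14, or p38 alpha, was at -0.17 as given above. No gene of ERK1 or ERK2 was among the members.

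Ptpn1, which encodes PTP1B, the phosphatase of the endoplasmic reticulum that acts on the insulin receptor, had the largest log2 ratio of the 29 genes at 1.97. The probe set used read 6659 and 1910, or 3.92-fold higher. Another read 10248 and 708, at least 13.6-fold higher, and yet another read 2150 and 2347, a log2 ratio of 0.04. Its remaining 2 probe sets were at the floor on both arrays, 1 of them a second design on the same source sequence as the probe set with the highest reading. The size for Ptpn1 thus ran from no difference to at least 13.6-fold with the probe set chosen.

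Ptpn6, or SHP1, a phosphatase mainly of blood cells, read 1868 and 244 with 1 probe set, at least 2.48-fold higher, and -309 and 1409 with the other, at least 1.48-fold lower. Its probe sets opposed each other and both bounds lie within the negative spread. Ptpn11, or SHP2, a signalling phosphatase found in most tissues that promotes the Ras and ERK pathway, read 1695 and 2169, a log2 ratio of -0.19, and 1077 and -173 with a probe set under the filter. Its other 3 probe sets were at the floor on both arrays. Ptpn21 and Ptpn3, both with a FERM domain that binds membrane proteins, read 1508 against 1483 and 1241 against 1931, log2 ratios of 0.19 and -0.47. A second probe set of Ptpn3 read 1347 and 628. Ptpn7, a MAP kinase phosphatase of blood cells, read 667 and 1453, a bound of -0.61. Ptpn2, Ptpn12, Ptpn18 and Ptpn23 were at the floor on both arrays, with readings from -6271 to 642.

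**Figure D3:**
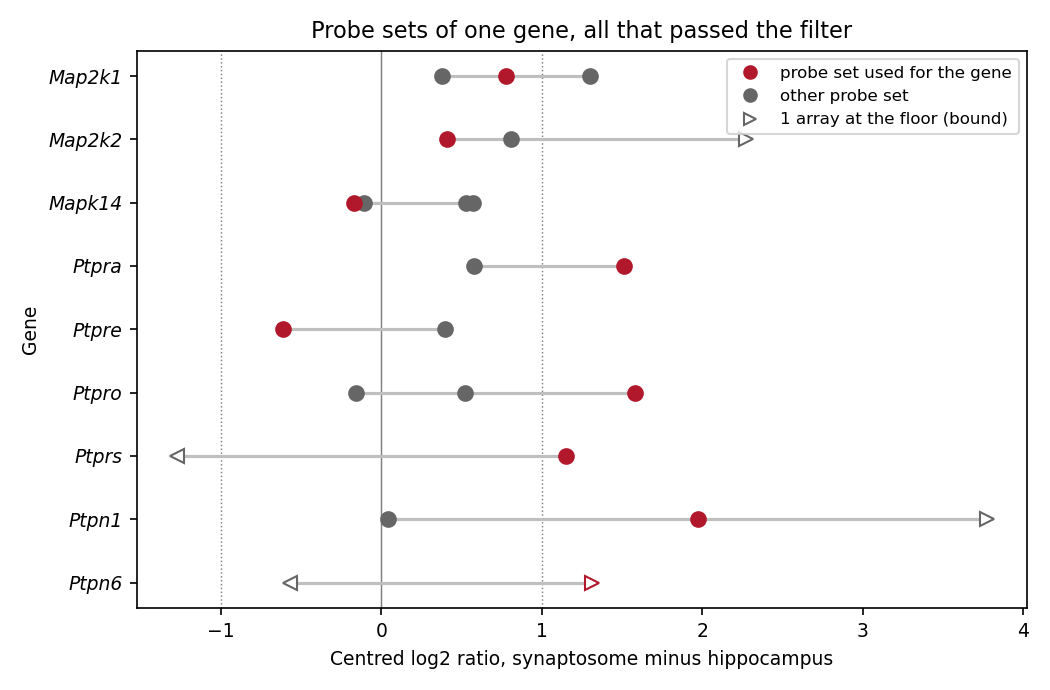
Centred log2 ratios (synaptosome minus hippocampus) of every filtered probe set of the 9 member genes that had several; red marks the probe set used for the gene, triangles are bounds with 1 array at the floor, and dotted lines mark 2-fold. The points of Map2k1, Map2k2, Ptpra and Ptpn1 lie on 1 side of 0, and those of Ptprs lie past 2-fold on both sides.

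The spread between probe sets of a gene was the only error that could be measured, and it leaves out animals, preparations and amplifications. Over the 9 member genes with several filtered probe sets, 24 in all, this SD was 1.06, beside 0.90 over the 658 such genes of the array. All probe sets had the same sign in 4 of the 9, or 44.4%, beside 59.0% over all such genes. In 0 member genes were all probe sets at least 2-fold in 1 direction. The kinase-cascade genes had an SD of 0.64 over 3 genes, the receptor phosphatases 1.04 over 4 and the non-receptor phosphatases 1.70 over 2. A 2-fold difference, 1 on the log2 scale, is therefore no larger than this spread for the phosphatases. The log2 ratios of Ptprf, Ptpn5 and Mapk8ip2 exceed the SD of 1.06 but rest on 1 probe set each. Ptpn5, at 1.34, does not exceed the 1.70 of the non-receptor phosphatases.

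The 12 genes past 2-fold differed in how far they depended on the processing. In 8 alternatives that changed the floor, the centring, the filter, the choice of probe set or the normalization, Mapk8ip2 had log2 ratios from 1.10 to 1.27, Ptpn5 from 1.14 to 1.34 and Ptpra from 1.05 to 1.51. Ptpn1 had 1.80 to 1.97 in the 7 that gave it a value. Map2k6 lay between -1.18 and -1.0 and fell just short of 2-fold with the floor at the 75th percentile. Ptprf was at 0.86 with that floor and Ptpro at 0.65 with the mean over probe sets, and both were past 2-fold in the other 7. Mapk8 and Dusp7 were at -0.13 and -0.16 with the higher floor, which lies close to their hippocampus readings. Mapkapk2 had -1.17 to -1.0 in the 5 that gave it a value. Ptprs ran from -1.27 to 1.15 and was at least 2-fold higher in 3 of 6. Ptpn6 ran from -0.57 to 1.27 and was at least 2-fold higher in 3 of 5. In all, 5 of the 12 genes stayed past 2-fold in their direction in every alternative that gave them a value. Among the 22 members above the floor on both arrays 7 were higher and 1 lower, beside 14.2% and 10.5% of 2175 genes.

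Partners of the ERK cascade reach from Ras and its regulators to transcription factors. Of 35 listed genes 14 were on the array and 12 passed the filter. Of the 12, 6 were at least 2-fold higher and 0 lower, with a median of 1.0, or 0.83 without centring. Nras, Araf and Creb1 had a hippocampus reading under the floor. They passed the filter only through the array where they are high. Among the 9 above the floor on both arrays, 4 were higher and 0 lower, with a median of 0.97. For this list and the 3 that follow, the shares over all filtered genes are again 19.1% higher and 14.3% lower. Over all genes above the floor on both arrays they are 14.2% and 10.5%. The small GTPase gene Nras read 5558 in synaptosomes and 314 in the hippocampus, at least 7.39-fold higher. The exchange factors of Ras encoded by Rasgrf1 and Rasgrp1 read 3908 against 956, or 4.6-fold higher, and 1882 against 867, or 2.44-fold higher. All 3 of these hippocampus readings lay close to or under the floor. Another Rasgrp1 probe set, under the filter, read 279 and 1130, a bound of -0.25 in the opposite direction. The other Nras probe set was at the floor on both arrays. Partners of the stress kinases divided, with 3 of 10 filtered genes higher and 2 lower at a median of -0.02. Over the 8 above the floor on both arrays, 3 were higher and 0 lower, with a median of 0.26. The kinase Pak2 read 3575 and 858, the GTPase Rac1 7899 and 3471, and the adaptor Traf2 1562 and 855, which are 4.69-fold, 2.56-fold and 2.06-fold higher. All 3 of these hippocampus readings lay within the negative spread, and those of Pak2 and Traf2 were just above the floor. The sizes of these folds are therefore uncertain. The other Pak2 probe set was at the floor on both arrays. The lower genes were Gadd45a, which activates a MAP3K, with 230 and 8788 or at least 9.23-fold, and the transcription factor Atf3 with 601 and 2889 or at least 3.03-fold.

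Tyrosine kinases and substrates, which tyrosine phosphatases oppose, had 6 of 14 filtered genes at least 2-fold higher and 0 lower, with a median of 0.56, or 0.39 without centring. Of the 6, Irs2, Ptk2 and Src had a hippocampus reading under the floor, so they passed the filter only through the array where they are high. Over the 11 that both arrays measured above the floor, 3 were higher and the median was 0.16. The 3 with the highest ratios were the insulin receptor substrate Irs2, the focal adhesion kinase Ptk2 and the BDNF receptor Ntrk2. Irs2 read 4033 and 359, at least 5.36-fold higher, but was lower with its other 2 filtered probe sets, with bounds of -0.85 and -0.57. Ptk2 read 3658 and -232, at least 4.87-fold higher, and Ntrk2 read 15928 and 3922, or 4.57-fold higher. The other Ntrk2 probe set was at the floor on both arrays. Ligands and partners of receptor phosphatases had 6 of 16 filtered genes at least 2-fold higher and 0 lower, with a median of 0.70, or 0.53 without centring. Among the 14 above the floor on both arrays, 5 were higher and 0 lower, with a median of 0.7. This list was led by the adhesion molecules L1cam, with 5168 and 1267 or 4.59-fold, and Nrcam, with 10994 and 3535 or 3.50-fold, and by the matrix protein Tnc, with 3875 and 1361 or 3.20-fold. Another Tnc probe set, under the filter, read 638 and 1083, a bound of -0.19, and the last was at the floor on both arrays. Of the contactin genes that encode ligands of Ptprg, Cntn4 had a log2 ratio of -0.37 and Cntn3 a bound of -0.81, and Cntn6 was at the floor on both arrays.

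**Figure D4:**
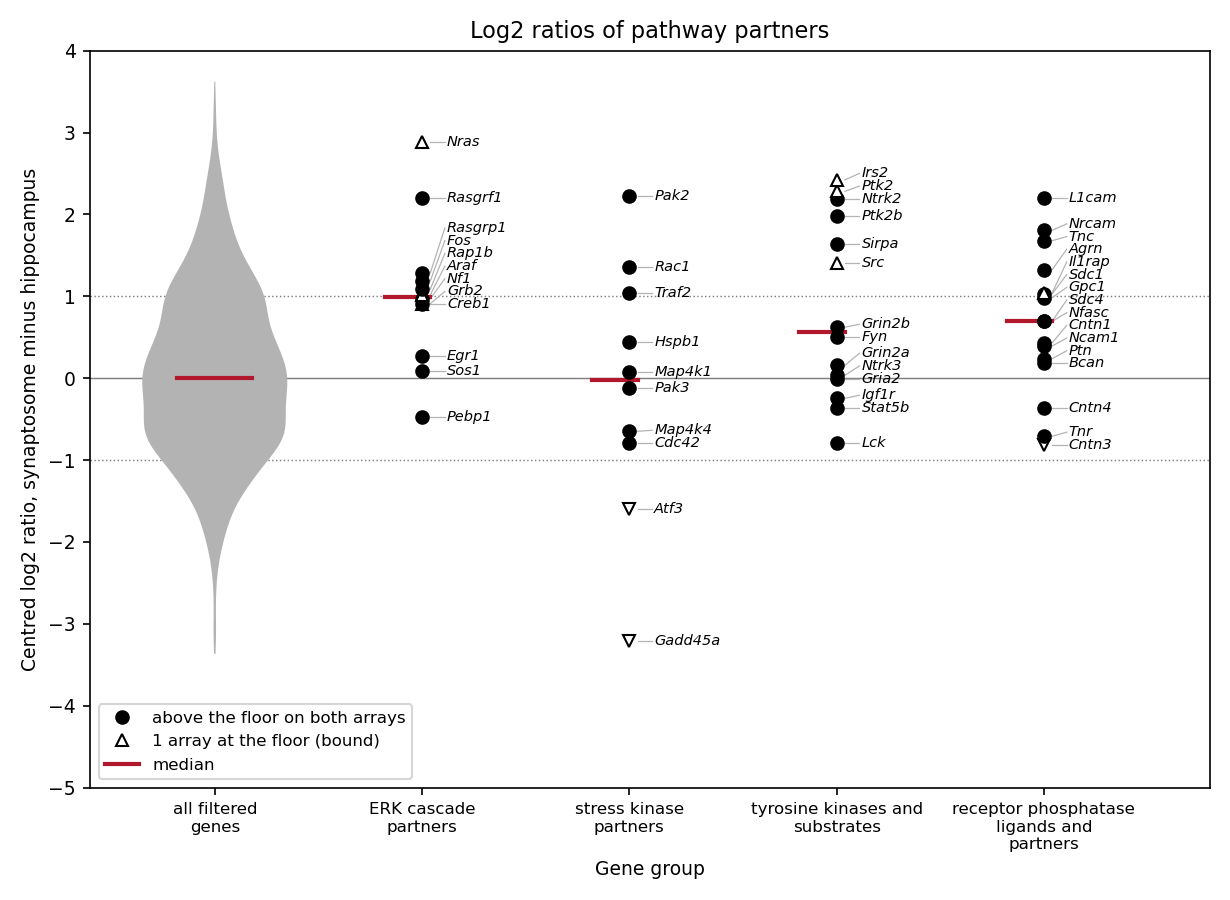
Centred log2 ratios (synaptosome minus hippocampus) of filtered genes from the 4 lists of partners, beside all 2735 filtered genes; red bars are medians, dotted lines mark 2-fold, and open triangles are bounds with 1 array at the floor. Genes past 2-fold lie on the higher side in the ERK, tyrosine kinase and receptor phosphatase lists, and on both sides in the stress kinase list.

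Cell type markers differed between the arrays too. All 7 neuronal genes on the array were above the floor on both arrays, with a median log2 ratio of 0.35, although Snap25 was 2.96-fold lower. Oligodendrocyte genes had a median of -1.32 over 5 genes, although Cnp, a myelin enzyme, was 2.67-fold higher. Endothelial genes had a median of -1.55 over 4, with Kdr and Slco1a4 under the floor in synaptosomes. Over the 2 above the floor on both arrays it was -0.41, with Flt1 2.31-fold lower and Pecam1 1.3-fold higher. The 7 astrocyte genes had a median of 0.24, with S100b 2.53-fold higher. Slc1a2 was 2.85-fold lower with the probe set used and 2.36-fold higher with another. Summed signals in synaptosomes and hippocampus were 171384 and 323736 for neuronal genes, 241730 and 214322 for astrocyte genes, 33178 and 81894 for oligodendrocyte genes and 5486 and 16554 for endothelial genes. Snap25 made up most of the neuronal sum in the hippocampus, with probe sets at 32782 against 109086 and 27778 against 108063. By contrast, 5 of the 7 neuronal genes had log2 ratios above 0. In the astrocyte sums the largest synaptosome reading was that of S100b, 61538 against 27401. Haemoglobin Hbb read 6811 and 35126. The part of these differences in the kinase and phosphatase ratios was not tested.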

How the data were processed

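The authors' deposited table gives a linear intensity for each of 8799 probe sets, 59 of them controls, on 1 synaptosome and 1 hippocampus array. Per the labels' protocols, RNA was column purified, amplified by the SMART cDNA method and transcribed into biotin-labelled cRNA. For the scanner software and the background correction, nothing is given in the sources used here. Of the 8740 non-control values, 25.2% (synaptosome) and 31.4% (hippocampus) were at or below 0. Means trimmed by 2% at each end were 2504 and 2505, so no further scaling was applied.

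Values under the pooled median, 846, were set to it, log2 was taken and ratios were centred. Probe sets with a mean level of at least 10.07 (log2), the median over non-control probe sets, passed, and 4370 did. A gene took its filtered probe set with the highest mean level. Symbols came from the platform's annotation; all 51 member genes were found in the RefSeq table of assembly GRCr8 with 0 symbols changed. Members, partner lists, markers and alternatives were chosen with earlier results of these data known. Every filtered member is named, and up to 3 genes past 2-fold in each direction per partner list; Fyn, Grin2b and contactin genes were named for their relation to members, after their values were seen. Scripts ran under Python 3.11.15 with pandas 2.3.3, NumPy 2.4.6 and matplotlib 3.10.9, and were tested on simulated data.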

Additional observations from a re-analysis of the deposited data

How the results depend on the processing

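Several medians near 0 changed sign. The kinase-cascade median of -0.17 was 0.02 with the floor at the 75th percentile, 0.21 with the mean over probe sets, 0.48 with genes above both floors and 0.55 with genes above the negative spread. The median over all members, 0.06, was -0.11 without centring and -0.19 without suffixed probe sets, where the non-receptor median was -0.33. Further changes, of over 1.5 times in a count or over the SD between probe sets in a median, follow; the causes were not tested. With the floor at the 75th percentile, 5 members were at least 2-fold higher and 0 lower, with 0 lower kinase-cascade genes, 0 lower dual-specificity phosphatases and 2 higher receptor phosphatases, and the non-receptor median was 1.55. Without centring 1 receptor phosphatase was lower. With the mean over probe sets, 2 kinase-cascade genes and 2 receptor phosphatases were higher, and the receptor median and Ptprs were both at -0.06. Without suffixed probe sets, 3 kinase-cascade genes were higher, 1 receptor phosphatase was lower and 1 non-receptor phosphatase was higher, with Ptpn6 at -0.57 and Ptprs at -1.27. Counting genes that both arrays measured above the floor, 1 member was lower, a kinase-cascade gene (1), with 0 dual-specificity phosphatases and a median of 0.06 for that class. With genes above the negative spread, a limit that is lower in synaptosomes and that the higher genes met through that array alone, 1 member was lower, again 1 kinase-cascade gene and 0 dual-specificity phosphatases, the median over all members was 1.02 and the non-receptor median 1.66; no dual-specificity phosphatase was left for a median. No paired analysis was possible because there is 1 array per group, and for the same reason no replicate could be left out. Signal over background limits all results: of 95 member probe sets, 16 in synaptosomes and 3 in the hippocampus lay above the negative spread.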

Other observations

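A probe set that the annotation assigns to both Mapk8 and Mapk10, the genes of JNK1 and the neuronal JNK3, belonged to no comparison because it has several symbols. It read 3180 in synaptosomes and 5901 in the hippocampus, a log2 ratio of -0.72. This lies on the same side as the bounds of -1.77 for Mapk8 and -0.53 for Mapk9. Mapk8 and Mapk9 passed the filter only through the hippocampus array.

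For 12 member genes the array carries a pair of probe set designs on 1 source sequence. In 4 pairs both designs rose above the floor on at least 1 array, in 5 pairs only 1 design did and in 3 pairs neither did. In Ptpn1 the designs on 1 source read 10248 and -281 in synaptosomes, and in Mapkapk3 they read 4148 and -875 in the hippocampus. In Ptpn3 and in Ptpn6 both designs were above the floor on an array and their ratios had opposite signs.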
